A study of Mus musculus with 12 samples.

Results

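A set of 10 genes of the major histocompatibility complex (MHC) class II and costimulation machinery, H2-Aa, H2-Ab1, H2-Eb1, H2-DMa, H2-Oa, H2-Ob, Cd74, Ciita, Cd80 and Cd86, was followed through 12 RNA-seq libraries of activated mouse B cells. The members were chosen by symbol, matched to the Ensembl identifiers of a count table of 55536 genes, and all 10 of 10 were found. Splenic cells of C57BL/6 mice came from 3 control mice with 1 copy of a Cre allele and from 3 mice that carried the same Cre allele and were homozygous for the loxP-flanked Pdap1 allele (Pdap1F/F, here Pdap1-deficient). Each mouse gave 1 culture with LPS and IL-4, which directs class switching to IgG1, and 1 with LPS, BAFF and TGFβ, which directs it to IgG2b, and both were harvested at 48 h. Both genotypes thus carried Cre, which is active in B lineage cells, and the control alleles of Pdap1 were not flanked by loxP sites as far as the labels say. The labels give no age or sex for single mice, and they name the CH12 lymphoma line, whereas the series title and the methods of the study describe primary cells. Primary cells are assumed below. The methods purify B cells for primary cultures with CD43 microbeads, but for RNA-seq they speak of splenocytes, so whether these cultures were depleted of CD43+ cells is not stated outright.

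MHC class II molecules are αβ heterodimers that present peptides from endocytosed proteins to CD4+ T cells. In C57BL/6 mice the I-A molecule is made of the H2-Aa α chain and the H2-Ab1 β chain, while H2-Eb1 encodes the β chain of I-E, whose α chain gene is defective in this strain. New heterodimers are held by the invariant chain (Cd74) until they reach endosomes, where H2-DM exchanges the remaining invariant chain fragment for peptide, and H2-DO, made of H2-Oa and H2-Ob and found mostly in B cells, restrains H2-DM. Ciita is the coactivator that turns on the promoters of these genes. Cd80 and Cd86 are the ligands of CD28 and CTLA-4 on T cells, and their levels on B cells change with activation. IL-4 has long been known to raise class II on B cells.

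The H2 members lie together on chromosome 17 of the GRCm38 build, from H2-Oa (chr17:34092340-34095234, plus strand) through H2-DMa (chr17:34119541-34139101, plus strand), H2-Ob (chr17:34238903-34254414, plus strand), H2-Ab1 (chr17:34257689-34269419, plus strand) and H2-Aa (chr17:34282744-34287823, minus strand) to H2-Eb1 (chr17:34305867-34316674, plus strand). Ciita (chr16:10480059-10528418, plus strand), Cd86 (chr16:36603869-36666081, minus strand) and Cd80 (chr16:38455561-38496335, plus strand) lie on chromosome 16. Each is annotated as a protein-coding gene. Promoters of class II genes are known for an X box, bound by the RFX complex, and a Y box, an inverted CCAAT bound by NF-Y, on which Ciita is assembled. RefSeq promoter windows (GRCm38.p6), from 250 bases before to 50 after the transcript start, were at hand for 6 of the 10 members. The sequences below run 5′ to 3′ on the strand of the gene, from base 100 to base 6 before the start, and show where these 2 elements stand in 3 class II members and what the same stretch of Cd80 looks like. Capitals mark GCAAC, the core of the X box, and ATTGG, the core of the Y box, where they were found as a pair.
H2-Aa (chr17:34287829-34287923, minus strand): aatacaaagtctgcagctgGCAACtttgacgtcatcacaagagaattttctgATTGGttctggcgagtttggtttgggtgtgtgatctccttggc
H2-Eb1 (chr17:34305767-34305861, plus strand): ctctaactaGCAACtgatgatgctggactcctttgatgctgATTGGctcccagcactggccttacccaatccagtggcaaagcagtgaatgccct
H2-Ob (chr17:34238805-34238899, plus strand): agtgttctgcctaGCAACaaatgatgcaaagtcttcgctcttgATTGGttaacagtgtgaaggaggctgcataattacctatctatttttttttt
Cd80 (chr16:38458833-38458927, plus strand): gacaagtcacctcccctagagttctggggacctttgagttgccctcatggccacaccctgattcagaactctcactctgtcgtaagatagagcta
The 2 motifs started 33 bases apart in H2-Aa, 32 in H2-Eb1 and 30 in H2-Ob, and the H2-Oa window held the same pair 33 bases apart. The pair, with a spacing of 28 to 36 bases set after these windows had been seen, was present in 4 of the 6 windows' genes and absent from Cd80 and H2-DMa, and on either strand it stood in 0.429% of 32851 mouse promoter windows, whereas ATTGG alone on either strand stood in 37.4%. The first 3 stretches lie directly upstream of the annotated gene, and that of Cd80 lies in an intron of a longer annotated transcript. Those of H2-DMa (chr17:34122732-34122826 and chr17:34125418-34125512) also lie inside the annotated gene, which starts at base 34119541. Whether the pair stands before that outer start was not read.

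Sequencing depth ranged from 4579793 to 15869143 counts in 11 libraries and was 69500640 in the LPS-BAFF-TGFβ library of control mouse 1, called the deep control library below. The smallest count of any member in any library was 63. Pdap1 stood between 81.2 and 204 CPM (counts scaled to library size, with TMM factors over the 12 libraries) in control libraries, with the highest value in the deep control library, and between 22.6 and 29.8 CPM in Pdap1-deficient libraries. Its log2 fold change was -1.82 in LPS-IL-4 (SE 0.11, edgeR adjusted p = 3.52e-05) and -2.33 in LPS-BAFF-TGFβ (SE 0.36, edgeR adjusted p = 0.0929). Ighg1 and Ighg2b separated the cultures, with 123 CPM or more of Ighg1 in LPS-IL-4 and 6.07 CPM or less in LPS-BAFF-TGFβ. The 5 B cell markers summed to between 1839 and 3060.0 CPM in every library. The 12 dendritic cell and macrophage markers summed to between 14.8 and 36.2 CPM in control libraries, but to 224 and 414 CPM in the 2 cultures of Pdap1-deficient mouse 2 and to 42.1 and 86.3 CPM in those of mouse 3. Xist was present in 2 of 3 control and in 1 of 3 Pdap1-deficient mice, alike in both cultures of each mouse, so that sex was not balanced between the genotypes. In bulk RNA, fewer cells of a type and less RNA per cell cannot be told apart.

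Per kilobase of exon, Cd74 was the most abundant member in every group, at 1122 ± 81.7 CPM per kb (SD, n = 3) in control LPS-IL-4 and 785 ± 29.4 in Pdap1-deficient LPS-BAFF-TGFβ. The chains H2-Eb1, H2-Ab1 and H2-Aa followed, at 457 ± 28.7, 340 ± 48.0 and 336 ± 8.96 CPM per kb in control LPS-IL-4. The ranges of H2-Ab1 and H2-Aa overlapped there, so those neighbours did not differ beyond their spread. H2-DMa, Ciita, H2-Ob and Cd86 stood lower, between 19.6 and 50.6 CPM per kb in the same group. H2-Oa was at 8.40 ± 1.96 and Cd80 closed the order at 1.57 ± 0.0292 CPM per kb. In control LPS-BAFF-TGFβ H2-Ab1 and H2-Eb1, whose ranges overlapped, changed places, and H2-DMa stood at 21.5 ± 0.376 CPM per kb there, below Ciita, H2-Ob and, with overlapping ranges, Cd86. The exons of H2-Oa share 321 of 1407 bases with a gene on the opposite strand, those of H2-DMa 360 of 3448 and those of Ciita 329 of 9535. Reads in such stretches seem not to have been counted for either gene, since 484 of 486 features that lie almost wholly (99% or more) under exons of the opposite strand had no count in any library, and the levels per kb of these 3 genes are understated to that extent.

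**Figure D1:**
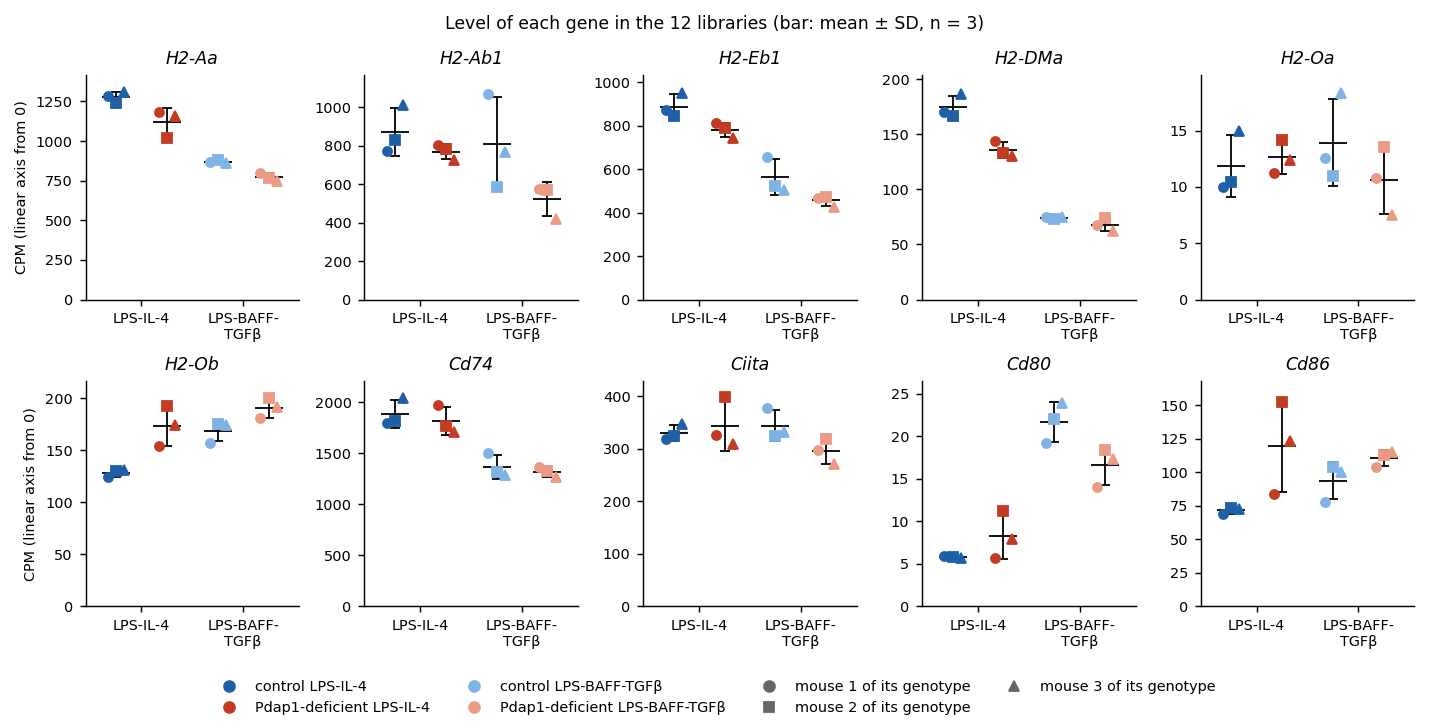
CPM (linear axis from 0) of the 10 genes in each of the 12 libraries, by culture and genotype; marker shapes are the 3 mice of each genotype and bars give mean ± SD (n = 3). H2-Aa, H2-Eb1, H2-DMa and Cd74 sit higher in LPS-IL-4, Cd80 sits lower, and the deep control library (circle, control LPS-BAFF-TGFβ) stands apart in H2-Ab1 at 1072 CPM.

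To ask how the levels differed between the stimulations, LPS-IL-4 was compared with LPS-BAFF-TGFβ within each genotype. The cultures differ in IL-4 and in BAFF with TGFβ at once, and no library came from LPS alone or from resting cells. A rise with LPS-IL-4 can therefore not be told apart from a fall with LPS-BAFF-TGFβ, and the reverse. The study also reports faster proliferation with LPS-BAFF-TGFβ, and the part of that was not tested. In control cells 4 members were higher with LPS-IL-4 (H2-Aa, H2-Eb1, H2-DMa and Cd74) and 2 were lower (H2-Ob and Cd80). These 6 of 10 calls, at an adjusted p below 0.05 in edgeR's quasi-likelihood test, compare with 19.3% of all genes tested (9.33% higher and 9.99% lower). In Pdap1-deficient cells 5 members were higher (the same 4 and H2-Ab1) and Cd80 was lower, beside 11.5% of all genes (5.89% higher and 5.57% lower). CPM ranges of the 2 cultures did not overlap for 7 members in control cells and 6 in Pdap1-deficient cells, where 37.5% and 28.1% of all genes tested were as separate. The median log2 fold change of the 10 members was 0.01 in control and 0.34 in Pdap1-deficient cells, beside -0.03 and 0.00 over all genes. Members of this set therefore did not move as one.

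**Figure D2:**
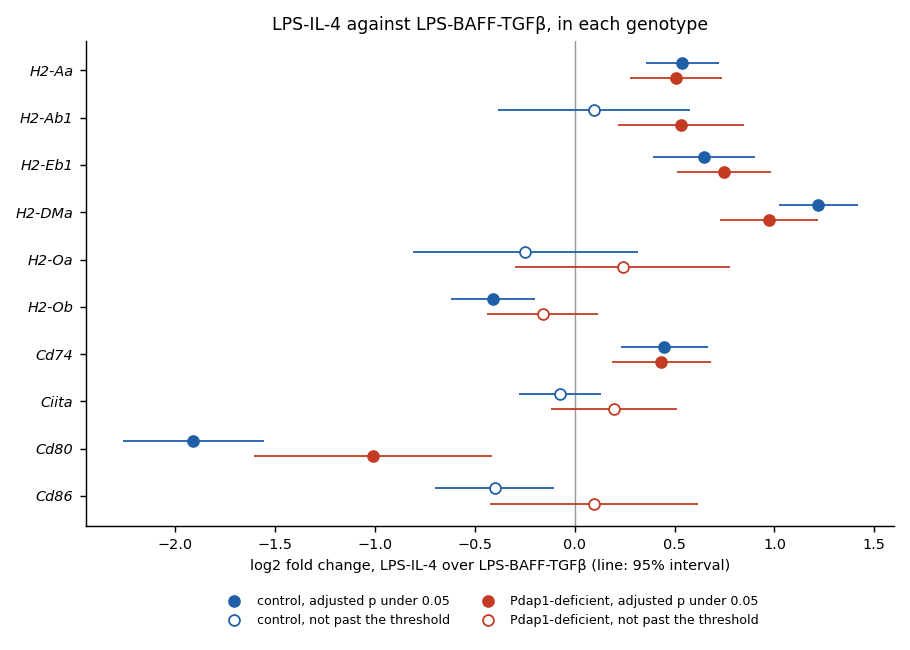
log2 fold change of LPS-IL-4 over LPS-BAFF-TGFβ with its 95% interval for each gene, in control (blue) and Pdap1-deficient (red) cells; filled points passed an adjusted p of 0.05 in edgeR. H2-DMa stands farthest to the right at 1.22 and 0.97, and Cd80 farthest to the left at -1.91 and -1.01.

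H2-Aa, the α chain of I-A, was at 1282, 1241 and 1309 CPM in the LPS-IL-4 cultures of control mice 1 to 3 and at 869, 882 and 861 CPM in their LPS-BAFF-TGFβ cultures. The Pdap1-deficient mice gave 1183, 1019 and 1156 CPM against 798, 766 and 748 CPM. Every LPS-IL-4 library was thus above every LPS-BAFF-TGFβ library, whichever the genotype. The difference was 1.45-fold in control (log2 0.54, SE 0.08, edgeR adjusted p = 0.00229) and 1.42-fold in Pdap1-deficient cells (log2 0.51, SE 0.10, edgeR adjusted p = 0.0106). In the Pdap1-deficient comparison the call was lost without the LPS-BAFF-TGFβ library of mouse 1 or 3 or the LPS-IL-4 library of mouse 3 (edgeR adjusted p = 0.0993, 0.0940 and 0.0632).

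H2-Eb1, the β chain left without its partner in this strain, was at 871, 843 and 950 CPM with LPS-IL-4 and at 657, 524 and 506 CPM with LPS-BAFF-TGFβ in control cells. It was at 810, 788 and 745 CPM against 469, 472 and 428 CPM in Pdap1-deficient cells. No library of one culture reached into the other. The fold changes were 1.56 (log2 0.65, SE 0.11, edgeR adjusted p = 0.00459) and 1.68 (log2 0.75, SE 0.11, edgeR adjusted p = 0.00159).

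H2-Ab1, the β chain of I-A, behaved less uniformly, with 775, 830 and 1010.4 CPM in control LPS-IL-4 and 1072, 586 and 769 CPM in control LPS-BAFF-TGFβ. The deep control library held the highest of these values, and the groups overlapped. The control fold change did not pass (log2 0.10, 95% interval -0.38 to 0.58, edgeR adjusted p = 0.791), nor did it without that library (log2 0.33, edgeR adjusted p = 0.232). In Pdap1-deficient cells H2-Ab1 stood at 802, 781 and 726 CPM against 577, 568 and 420 CPM, with no overlap. There it rose by a log2 fold change of 0.53 (SE 0.14, edgeR adjusted p = 0.0394), a call that was lost with all 12 libraries in one fit (edgeR adjusted p = 0.0894) and without mouse 1 or mouse 3 in either culture (0.0918 to 0.147). Mouse by mouse, H2-Ab1 was higher with LPS-IL-4 in 5 of 6 mice, the exception being control mouse 1.

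Cd74, the invariant chain, was the most abundant member by CPM too, at 1795, 1816 and 2042 CPM with LPS-IL-4 and 1504, 1311 and 1290.1 CPM with LPS-BAFF-TGFβ in control cells. Pdap1-deficient cells held 1974, 1763 and 1711 CPM against 1364, 1325 and 1266 CPM. Both genotypes showed separate ranges, and all 6 mice were higher with LPS-IL-4. The log2 fold changes were 0.45 (SE 0.10, edgeR adjusted p = 0.0129) and 0.43 (SE 0.11, edgeR adjusted p = 0.0331). In control cells the call was lost with the mouse as a block (edgeR adjusted p = 0.0547) and without LPS-IL-4 mouse 1 or 3 or LPS-BAFF-TGFβ mouse 3 (0.0587, 0.0765 and 0.0584). In Pdap1-deficient cells it was lost without mouse 1 or 3 in either culture or the LPS-BAFF-TGFβ library of mouse 2, with an edgeR adjusted p between 0.0772 and 0.184, but not with the mouse as a block (7.99e-05).

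The peptide editor H2-DMa had the largest fitted rise of the members in both genotypes. Control LPS-IL-4 libraries held 170.1, 167 and 186 CPM and control LPS-BAFF-TGFβ libraries 74.5, 72.7 and 75.3 CPM. Pdap1-deficient libraries held 144, 133 and 130.2 CPM against 67.3, 73.8 and 62.5 CPM. The lowest LPS-IL-4 library was well above the highest LPS-BAFF-TGFβ library. Fold changes were 2.33 in control (log2 1.22, SE 0.09, edgeR adjusted p = 4.13e-05) and 1.96 in Pdap1-deficient cells (log2 0.97, SE 0.11, edgeR adjusted p = 0.000417), and both passed under all the alternatives run.

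Neither of the H2-DO chains passed in the higher direction. H2-Ob, the β chain, was at 124, 130.1 and 131 CPM with LPS-IL-4 and at 157, 175 and 175 CPM with LPS-BAFF-TGFβ in control cells, lower in all 3 mice. This was a fall (log2 -0.41, SE 0.09, edgeR adjusted p = 0.0157), lost with the mouse as a block (edgeR adjusted p = 0.0512), without any 1 of the LPS-IL-4 libraries (0.0622 to 0.0960) and without LPS-BAFF-TGFβ mouse 3 (0.0690). In Pdap1-deficient cells the values were 154, 192 and 174 CPM against 181, 200.1 and 191 CPM, overlapping but again lower in all 3 mice, with a log2 fold change of -0.16 (95% interval -0.44 to 0.12, edgeR adjusted p = 0.510). H2-Oa, the α chain, lay between 7.50 and 18.3 CPM in all 12 libraries. Its log2 fold changes were -0.25 in control (95% interval -0.81 to 0.32, edgeR adjusted p = 0.539) and 0.24 in Pdap1-deficient cells (95% interval -0.30 to 0.78, edgeR adjusted p = 0.624). The fall of 0.41 fitted for H2-Ob was within the control interval of H2-Oa. The Pdap1-deficient interval of H2-Oa included the rise of 0.51 fitted for H2-Aa in those cells. Mouse by mouse, H2-Oa was lower with LPS-IL-4 in all 3 control mice and higher in all 3 Pdap1-deficient mice.

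Ciita, the coactivator upstream of the class II members, was at 318, 324 and 348 CPM with LPS-IL-4 and at 378, 324 and 331 CPM with LPS-BAFF-TGFβ in control cells. Pdap1-deficient cells held 326, 398 and 308 CPM against 297, 318 and 271 CPM. The cultures overlapped in both genotypes. The log2 fold change was -0.07 in control (95% interval -0.28 to 0.13, edgeR adjusted p = 0.618), an interval that leaves out the rise of 0.54 fitted for H2-Aa, and 0.20 in Pdap1-deficient cells (95% interval -0.12 to 0.51, edgeR adjusted p = 0.463). With the mouse as a block the latter passed (log2 0.19, edgeR adjusted p = 0.0444), and all 3 Pdap1-deficient mice were higher with LPS-IL-4.

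Cd80 moved the other way in both genotypes, and in control cells its fitted change was the largest of the 10 members. In Pdap1-deficient cells its size was close to that of H2-DMa. Control cells held 5.93, 5.83 and 5.71 CPM with LPS-IL-4 and 19.2, 22.03 and 23.9 CPM with LPS-BAFF-TGFβ. In Pdap1-deficient cells the values were 5.71, 11.2 and 7.90 CPM against 14.0, 18.4 and 17.3 CPM. All 6 mice were lower with LPS-IL-4, and the ranges were apart in both genotypes. The log2 fold change was -1.91 in control (SE 0.15, edgeR adjusted p = 8.43e-05) and -1.01 in Pdap1-deficient cells (SE 0.27, edgeR adjusted p = 0.0381). The latter call was lost without mouse 1 or 3 in either culture, without the LPS-BAFF-TGFβ library of mouse 2 (edgeR adjusted p between 0.0619 and 0.140) and with counts thinned to the smallest library (0.107). It was kept without both libraries of mouse 2, which had the highest sums of macrophage markers (log2 -1.25, edgeR adjusted p = 0.00221).

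Cd86, the other CD28 ligand, did not pass in either genotype. It was at 68.7, 73.6 and 73.0 CPM with LPS-IL-4 and at 77.7, 104 and 99.98 CPM with LPS-BAFF-TGFβ in control cells, lower in all 3 mice but not past the threshold (log2 -0.40, 95% interval -0.70 to -0.10, edgeR adjusted p = 0.0664). Without the deep control library it passed (log2 -0.54, edgeR adjusted p = 4.64e-05). Pdap1-deficient cells gave 83.5, 152 and 124 CPM against 104, 113 and 115 CPM, with overlap (log2 0.10, 95% interval -0.42 to 0.62, edgeR adjusted p = 0.851). Leaving out both libraries of mouse 2 turned that sign (log2 -0.12, edgeR adjusted p = 0.801).

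Other genes of the pathway, from lists by function, were read with the same test. The shares over all genes are those given above. They were 9.33% higher and 9.99% lower in control and 5.89% higher and 5.57% lower in Pdap1-deficient cells. Of 4 further class II chain and loading genes, 2 were higher and 1 lower with LPS-IL-4 in each genotype. H2-DMb2 (log2 0.93 in control, SE 0.10, edgeR adjusted p = 0.000421) and H2-DMb1 (0.62, SE 0.12, 0.00958), the near-identical β chain genes of H2-DM whose reads may be split between them, rose as H2-DMa did. H2-Eb2 fell instead (log2 -0.98, SE 0.10, edgeR adjusted p = 0.000224), from 122, 102 and 100.1 CPM with LPS-BAFF-TGFβ to between 53.5 and 56.3 CPM with LPS-IL-4 in control cells. Its promoter window holds the GCAAC and ATTGG pair as well, 32 bases apart, and those of H2-DMb1 and H2-DMb2 do not.

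Of 6 tested genes for factors that bind class II promoters none was higher in either genotype. Rfxank, a subunit of RFX, was lower with LPS-IL-4 in control cells (log2 -1.01, SE 0.15, edgeR adjusted p = 0.00256), and Creb1 was lower in Pdap1-deficient cells (log2 -0.43, SE 0.11, edgeR adjusted p = 0.0342). The median of the 6 was -0.29 in control cells, beside -0.03 over all genes. Nfya was listed at 0 in 11 of the 12 libraries and was not tested.

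Endosomal processing genes gave 3 higher calls in each genotype among 7 tested, Lgmn, Ctsh and Sppl2a, and 1 lower call in control cells, the cathepsin gene Ctsl (log2 -1.11, SE 0.25, edgeR adjusted p = 0.0162). Lgmn, the asparaginyl endopeptidase legumain, went from 28.5, 28.3 and 30.5 CPM to 70.8, 67.5 and 80.9 CPM in control cells (log2 1.31, SE 0.11, edgeR adjusted p = 9.23e-05). Sppl2a cleaves the last membrane-bound fragment of the invariant chain and rose by a log2 fold change of 0.50 (SE 0.14, edgeR adjusted p = 0.0417). Ctss, the cathepsin best known for invariant chain cleavage in B cells, was at 211 to 227 CPM with LPS-IL-4 and 177 to 212 CPM with LPS-BAFF-TGFβ in control cells and did not pass.

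Of 3 genes tested that act on the surface life of class II and CD86, 2 were higher with LPS-IL-4 in control cells and 1 in Pdap1-deficient cells. Cd83, which stabilizes both proteins, was at 642, 687 and 641 CPM with LPS-IL-4 and at 336, 319 and 301 CPM with LPS-BAFF-TGFβ in control cells (log2 1.03, SE 0.08, edgeR adjusted p = 7.97e-05). March1, the ubiquitin ligase that removes both from the surface, rose in the same comparison (log2 1.33, SE 0.17, edgeR adjusted p = 0.00120). The gene for the stabilizer and the gene for the ligase that opposes it were thus both higher with LPS-IL-4 in control cells. In Pdap1-deficient cells Cd83 rose (log2 0.85, SE 0.09, edgeR adjusted p = 0.000340), and March1 had a log2 fold change of 1.03 (SE 0.30) that did not pass (edgeR adjusted p = 0.0764). March8, a related ligase, had log2 fold changes of -0.17 and -0.23 (edgeR adjusted p = 0.671 and 0.602).

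Among 6 other costimulatory and adhesion genes tested in control cells, Cd274 and Icam1 were higher and Icosl was lower. Icosl, the ligand of ICOS, was at 9.01, 7.12 and 8.56 CPM with LPS-IL-4 and at 32.6, 39.0 and 36.2 CPM with LPS-BAFF-TGFβ. Its log2 fold change of -2.14 (SE 0.15, edgeR adjusted p = 4.13e-05) and that of -1.65 in Pdap1-deficient cells (SE 0.18, edgeR adjusted p = 0.000319) stood beside the fall of Cd80. Icam1, the ligand of LFA-1, rose in both genotypes by log2 0.74 and 0.49 (SE 0.10 and 0.13, edgeR adjusted p = 0.00130 and 0.0324). Among the 5 B cell markers, Ms4a1, Cd79b and Cd22 were also higher with LPS-IL-4 in both genotypes, while Cd79a (log2 -0.48 in control and -0.09 in Pdap1-deficient cells) and Pax5 (-0.02 and -0.11) did not pass in either. The list summed to 2820.0 to 3060.0 CPM with LPS-IL-4 and to 1839 to 2043 CPM with LPS-BAFF-TGFβ. Of 5 plasmablast markers tested, 4 were higher and Irf4 was lower in control cells. Among the dendritic cell and macrophage markers Xcr1 and Adgre1 were lower with LPS-IL-4 in control cells, where the list summed to 14.8 to 20.7 CPM against 26.6 to 36.2 CPM. The part of these differences in the results on the members was not tested.

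To ask what loss of Pdap1 did to the same genes, Pdap1-deficient and control cells were compared within each culture, sharing with the comparisons above the same libraries. In LPS-IL-4, H2-Ob was the 1 member of 10 to pass, in the higher direction, where 4.92% of all genes passed (2.79% higher). CPM ranges of the genotypes were apart for 5 members, H2-Ob and Cd86 higher and H2-Aa, H2-Eb1 and H2-DMa lower, and for 31.0% of all genes. The median log2 fold change of the members was 0.04, beside 0.02 over all genes. In LPS-BAFF-TGFβ none of the 10 passed in edgeR, where 0.462% of all genes did. There 1 of the 10 had an unadjusted p under 0.05, as did 1486 of all 14079 genes tested. DESeq2 called none there either. CPM ranges of the genotypes were apart for 7 members there (2 higher and 5 lower), and for 18.9% of all genes.

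**Figure D3:**
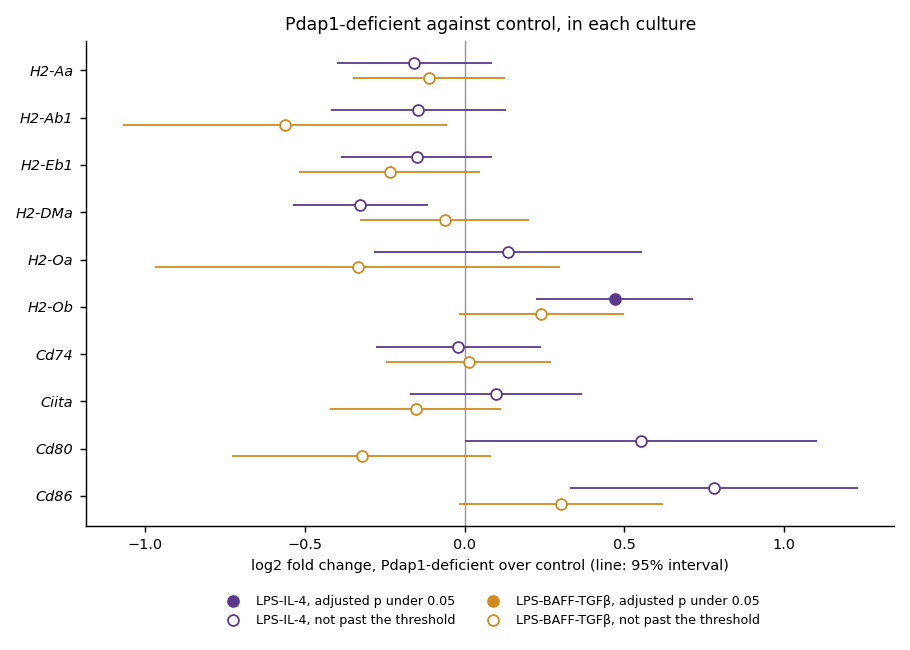
log2 fold change of Pdap1-deficient over control with its 95% interval for each gene, in LPS-IL-4 (purple) and LPS-BAFF-TGFβ (ochre); the filled point passed an adjusted p of 0.05 in edgeR. H2-Ob in LPS-IL-4, at 0.47, is the filled one, and the interval of Cd86 in LPS-IL-4 runs from 0.33 to 1.23.

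H2-Ob in LPS-IL-4 was at 124, 130.1 and 131 CPM in control and at 154, 192 and 174 CPM in Pdap1-deficient mice, so that every deficient library was above every control library. The fold change was 1.38 (log2 0.47, SE 0.11, edgeR adjusted p = 0.0404). This call did not hold with the sex of the mouse as a term (log2 0.41, edgeR adjusted p = 0.143), without any 1 of the control mice (0.176 to 0.179) or without Pdap1-deficient mouse 3 (0.119). It held without mouse 2, which had the highest sum of dendritic cell and macrophage markers (log2 0.38, edgeR adjusted p = 0.00662). Mouse 3, at 42.1 CPM of these markers in LPS-IL-4, was also above every control library. In LPS-BAFF-TGFβ H2-Ob was again higher in each deficient library (181, 200.1 and 191 CPM) than in each control library (157, 175 and 175 CPM), with a log2 fold change of 0.24 that did not pass (95% interval -0.02 to 0.50, edgeR adjusted p = 0.496) and was 0.12 without the deep control library and mouse 2 (0.739). In both cultures the order of the deficient libraries in H2-Ob was that of the dendritic cell and macrophage markers. These summed to 16.9, 224 and 42.1 CPM with LPS-IL-4 and to 22.5, 414 and 86.3 CPM with LPS-BAFF-TGFβ in mice 1 to 3. The part of macrophage RNA in the H2-Ob difference was not tested.

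H2-DMa, the chain that H2-DO acts on, went the other way in LPS-IL-4. Control libraries held 170.1, 167 and 186 CPM and deficient libraries 144, 133 and 130.2 CPM, which did not overlap. The log2 fold change of -0.33 (95% interval -0.54 to -0.12) did not pass in edgeR (adjusted p = 0.0760). DESeq2 called it (adjusted p = 0.0332), together with H2-Ob and Cd86, where it called 8.90% of all genes, and so did edgeR without Pdap1-deficient mouse 2 (adjusted p = 0.0145). With LPS-BAFF-TGFβ the difference of H2-DMa was -0.06 (95% interval -0.33 to 0.20, edgeR adjusted p = 0.860). H2-Oa, the other H2-DO chain, had log2 differences of 0.14 in LPS-IL-4 (95% interval -0.28 to 0.55, edgeR adjusted p = 0.704) and -0.33 in LPS-BAFF-TGFβ (-0.97 to 0.30, 0.659).

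None of the chains of I-A and I-E, nor the invariant chain, passed between genotypes, and the largest fitted difference among them was that of H2-Ab1 in LPS-BAFF-TGFβ. H2-Aa was lower in each deficient library of either culture than in any control library of that culture, by log2 -0.16 in LPS-IL-4 (95% interval -0.40 to 0.08, edgeR adjusted p = 0.411) and -0.11 in LPS-BAFF-TGFβ (-0.35 to 0.13, 0.698). H2-Eb1 had the same arrangement, at -0.15 (95% interval -0.39 to 0.09, edgeR adjusted p = 0.423) and -0.23 (-0.52 to 0.05, 0.527). For H2-Ab1 the value in LPS-BAFF-TGFβ was -0.56 (95% interval -1.07 to -0.05, edgeR adjusted p = 0.442), with every deficient library below every control library, and it was -0.33 without the deep control library (edgeR adjusted p = 0.556). Cd74 differed by -0.02 (95% interval -0.28 to 0.24, edgeR adjusted p = 0.940) and 0.01 (-0.25 to 0.27, 0.976). Ciita overlapped between the genotypes in LPS-IL-4 (log2 0.10, 95% interval -0.17 to 0.37, edgeR adjusted p = 0.668) and was at log2 -0.15 in LPS-BAFF-TGFβ (95% interval -0.42 to 0.11, edgeR adjusted p = 0.631). Prdm1, known as a repressor of Ciita in plasma cell differentiation, was at 18.4, 14.5 and 20.3 CPM in control and at 51.5, 62.0 and 70.9 CPM in deficient LPS-IL-4 libraries (log2 1.82, SE 0.16, edgeR adjusted p = 0.000323). It was the 1 plasmablast marker of 5 tested that passed between genotypes there. Sdc1, another of them, was lower in each deficient library than in any control library and did not pass (log2 -0.76, 95% interval -1.28 to -0.24, edgeR adjusted p = 0.0858). Ciita in the same libraries did not pass, and the part of Prdm1 in any member's level was not tested.

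Cd86 in LPS-IL-4 was at 68.7, 73.6 and 73.0 CPM in control and at 83.5, 152 and 124 CPM in Pdap1-deficient mice. All deficient libraries were above all control libraries, but with a spread of 34.6 CPM (SD) against 2.68 CPM. The log2 fold change of 0.78 (95% interval 0.33 to 1.23) missed the threshold (edgeR adjusted p = 0.0593). The order of the deficient libraries in Cd86 was that of the dendritic cell and macrophage markers, which summed to 16.9, 224 and 42.1 CPM in mice 1 to 3. In LPS-BAFF-TGFβ the orders differed, with Cd86 at 104, 113 and 115 CPM and the markers at 22.5, 414 and 86.3 CPM. Lyz2, a macrophage marker, was at 0.0793, 89.5 and 9.58 CPM in the deficient LPS-IL-4 libraries, while Clec9a was at 0 in every library. In mouse 1 Lyz2 and Csf1r were below 1 CPM, and Cd86 was at 83.5 CPM, beside a highest control value of 73.6 CPM. Adgre1, another macrophage marker of the list, was fitted higher in deficient cells as Lyz2 and Csf1r were, but differed from them in mouse 1. It was higher in each deficient LPS-IL-4 library, that of mouse 1 included, than in any control one, without passing (log2 2.78, edgeR adjusted p = 0.249). For Cd86 in LPS-IL-4, the log2 fold change was 0.55 without mouse 2 (edgeR adjusted p = 0.0766) and 0.60 with sex as a term (0.150). Cd86 passed without mouse 1 (log2 0.99, edgeR adjusted p = 0.00369), with all 12 libraries in one fit (0.0417) and with no filter on low counts (0.0441). It also passed with thinned counts (edgeR adjusted p = 0.0448) and in DESeq2 (adjusted p = 0.00227). The part of macrophage RNA in this difference was not tested beyond these fits.

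In LPS-BAFF-TGFβ Cd86 was at 77.7, 104 and 99.98 CPM in control and 104, 113 and 115 CPM in Pdap1-deficient mice (log2 0.30, 95% interval -0.02 to 0.62, edgeR adjusted p = 0.489), and without the deep control library and mouse 2 the value was 0.13 (0.744). Cd80 showed no common direction. In LPS-IL-4 deficient mouse 1 was at 5.71 CPM, level with the controls, and mouse 2 at 11.2 CPM, for a log2 fold change of 0.55 (95% interval 0.00 to 1.10, edgeR adjusted p = 0.208) that was 0.24 without mouse 2 (0.544). In LPS-BAFF-TGFβ each deficient library was below each control library, with a log2 fold change of -0.32 (95% interval -0.73 to 0.08, edgeR adjusted p = 0.534).

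**Figure D4:**
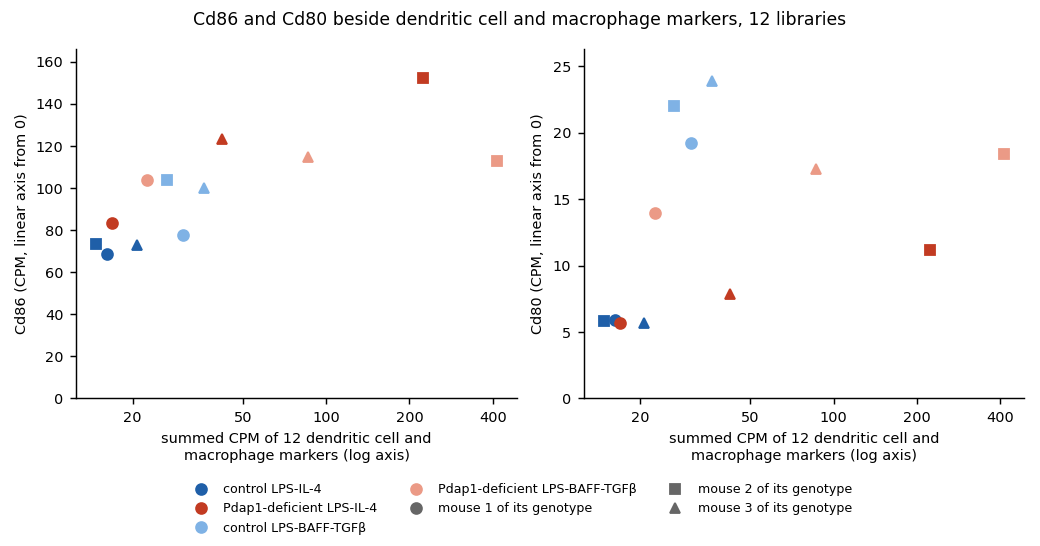
CPM of Cd86 and Cd80 (linear axes from 0) against the summed CPM of 12 dendritic cell and macrophage markers (log axis) in each library; colours are the 4 groups and shapes the mice. Both libraries of Pdap1-deficient mouse 2 lie far to the right, at 224 and 414 CPM, and the highest Cd86 value, 152 CPM, belongs to mouse 2 in LPS-IL-4.

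Of the other pathway genes, 1 passed between genotypes, in LPS-IL-4, where 4.92% of all genes did. Tested there were 4 further class II chain and loading genes, 6 promoter factors and 7 endosomal processing genes. To these came 3 genes of class II and CD86 turnover and 6 of other costimulation and adhesion. Cd40, the receptor through which T cells help B cells, was at 124, 133 and 136 CPM in control LPS-IL-4 cultures and at 99.7, 96.3 and 80.7 CPM in deficient cells of that culture (log2 -0.47, SE 0.11, edgeR adjusted p = 0.0372). Alternative fits are not given for Cd40, and calls over all genes in this comparison went from 741 to 173 with sex as a term. March1 stood at 29.3, 30.1 and 26.2 CPM against 37.2, 48.2 and 35.7 CPM and missed the threshold (log2 0.54, SE 0.14, edgeR adjusted p = 0.0543). Ctsl was at 1.74, 9.62 and 4.21 CPM in the deficient LPS-IL-4 libraries, beside 1.29 to 1.52 CPM in controls, and at 4.60, 12.9 and 5.42 CPM in the deficient LPS-BAFF-TGFβ libraries, beside 2.79 to 3.57 CPM. The genotypes did not overlap in either culture, and neither difference passed (log2 1.91 and 1.36, edgeR adjusted p = 0.105 and 0.325). Cd274 was at 11.3, 51.9 and 19.7 CPM in deficient and 11.7 to 15.3 CPM in control LPS-IL-4 libraries, which overlapped. Both genes were highest in mouse 2 in each culture, as the macrophage markers were, and their part in these values was not tested. None of the listed pathway genes passed in LPS-BAFF-TGFβ.

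Whether the effect of Pdap1 loss differed between cultures was tested by the genotype by stimulation term. None of the 10 members passed in edgeR, as none of 15794 genes did (0.00% called, 755 at an unadjusted p under 0.05), and DESeq2 called 6 genes, none of them a member. Cd80 was the 1 member at an unadjusted p under 0.05, and its fitted fall with LPS-IL-4 was smaller in Pdap1-deficient cells by log2 0.90 (95% interval 0.20 to 1.60, edgeR adjusted p = 0.983). For H2-DMa the term was -0.25 (95% interval -0.54 to 0.05), for Cd86 0.50 (-0.09 to 1.09) and for H2-Aa -0.03 (-0.30 to 0.24). Calls made in one genotype or culture and not in the other, such as those of H2-Ab1 and H2-Ob, are thus not shown to differ between them.

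Ratios of 2 genes within a library do not depend on the scaling between libraries, and 5 were read as ratios of CPM, not per length. With 3 libraries a group, the exact two-sided permutation test cannot go below p = 0.1. H2-DMa to H2-Ob, the editor over a chain of its inhibitor, was 1.37, 1.28 and 1.42 in control LPS-IL-4 and 0.475, 0.415 and 0.431 in control LPS-BAFF-TGFβ. In Pdap1-deficient cells it was 0.935, 0.694 and 0.749 against 0.372, 0.369 and 0.327. The 4 groups did not overlap in this ratio, which is built from the levels of H2-DMa and H2-Ob given above. For none of the 5 ratios was the share of gene pairs that separate in this way computed. Single genes had ranges apart in 18.9% to 37.5% of genes tested, depending on the comparison. The log2 difference between cultures was 1.63 in control and 1.14 in deficient cells, and that between genotypes was -0.79 in LPS-IL-4 and -0.31 in LPS-BAFF-TGFβ (exact permutation p = 0.1 for each of the 4, adjusted to 0.182 over the 20 ratio tests, as for all 11 with p = 0.1). H2-DMa to H2-Oa was likewise higher with LPS-IL-4 in both genotypes, by log2 1.46 and 0.72 (exact permutation p = 0.1 each), and overlapped between genotypes in both cultures.

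Cd86 to Cd80 gave the second set of 4 groups without overlap. It was 11.6, 12.6 and 12.8 in control LPS-IL-4 cultures and 14.6, 13.6 and 15.6 in those of Pdap1-deficient mice, and 4.05, 4.72 and 4.19 against 7.44, 6.14 and 6.64 in LPS-BAFF-TGFβ. The log2 difference between genotypes was 0.25 and 0.64 (exact permutation p = 0.1 each). Without mouse 2, which had the lowest ratio of the deficient mice in both cultures, the LPS-IL-4 difference was 0.30. The ratio of H2-Aa to H2-Ab1 lay between 1.30 and 1.65 in control LPS-IL-4 and overlapped in all comparisons (exact permutation p from 0.3 to 0.8), with the deep control library lowest at 0.811. Cd74 to H2-Ab1 was apart only between genotypes in LPS-BAFF-TGFβ, at 1.40, 2.24 and 1.68 in control and 2.36, 2.33 and 3.01 in deficient cells (exact permutation p = 0.1).

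**Figure D5:**
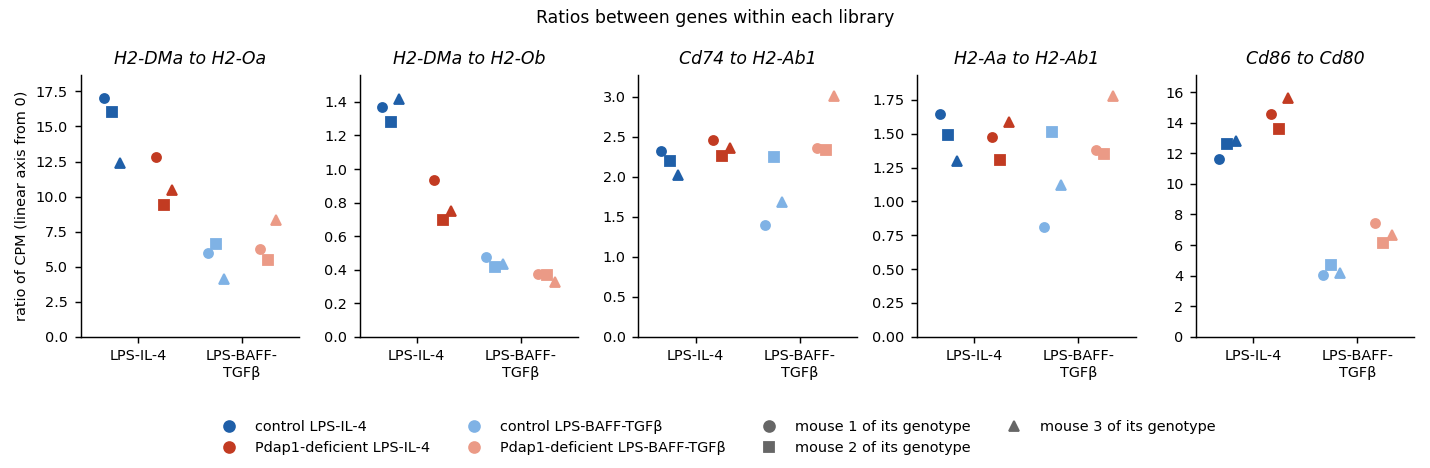
Ratio of the CPM of 2 genes within each library (linear axes from 0) for 5 pairs, by culture, genotype (colour) and mouse (shape). The 4 groups are apart for H2-DMa to H2-Ob, from 0.327 to 1.42, and for Cd86 to Cd80, from 4.05 to 15.6, and overlap for H2-Aa to H2-Ab1.

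Across the 12 libraries the members fell into blocks, given as a description since the libraries share mice and cultures. H2-Aa, H2-Eb1, H2-DMa and Cd74 had Pearson r of 0.931 to 0.974 with each other (log2 CPM), while Cd80 was at -0.856 to -0.927 with them. H2-Ob went with Cd86 (r = 0.891) and against H2-Aa (r = -0.810), and Ciita with H2-Ab1 (r = 0.755) rather than with H2-Aa (r = 0.274). The deep control library held the highest control value of both Ciita (378 CPM) and H2-Ab1 (1072 CPM). Their r without it was not computed. Among 15794 genes, those most like H2-Aa over the 12 libraries were Hyou1 (r = 0.995), an endoplasmic reticulum chaperone, Lamc1 (0.988) and Scd1 (0.988). Closest to Cd80 were Ahrr (r = 0.979) and Ahr (0.978), the repressor of the aryl hydrocarbon receptor and the receptor itself, and Tifa (0.976). Ahr was at a mean of 13.0 CPM in control LPS-IL-4 and 61.2 CPM in control LPS-BAFF-TGFβ. Cd86 was most like Trp53inp1 (r = 0.983), a p53 target, Ogfrl1 (0.958) and Setdb2 (0.951), and Ciita like H2-K2 (0.948), Irf2 (0.907) and Safb2 (0.902).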

How the data were processed

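RNA-seq libraries from 6 mice, each in 2 cultures, were analysed. The authors trimmed, aligned and counted reads per Ensembl gene, and the deposited raw counts are whole numbers without normalization; the submitters' processing notes name Trim Galore 0.6.1, STAR 2.6, HTSeq 0.9.1, DESeq2 and GRCm38. The strand setting of the counting is not given in the sources used here. The deposited normalized table is these counts divided by 1 constant per library and was not used. Values are per library, and 0 per-sample columns went unmapped. Symbols came from GENCODE M21 (GRCm38), which named all 55536 features, and 100 of 103 listed symbols matched, the rest being alternate spellings. 1 B cell marker and the name of the Cre allele are not reported here.

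Genes were filtered with filterByExpr, scaled by TMM and tested with edgeR 4.0.16 (robust quasi-likelihood F test) in R 4.3.3 on the libraries of each comparison, with Benjamini-Hochberg adjustment over all genes and a threshold of 0.05; intervals are 95%. All 10 members passed the filter in every fit. DESeq2 1.42.0, other scalings and filters, libraries left out, thinning, and the mouse or its sex as a term were alternatives. log2 CPM used a prior count of 2. On simulated data the scripts recovered the sign of the changed genes they called. The mouse pairs the cultures, as the series states, with correlations of deviations of 0.579, 0.624 and 0.294 in Pdap1-deficient and -0.181, 0.341 and -0.0225 in control mice. In control mice LPS-IL-4 mouse 3 and LPS-BAFF-TGFβ mouse 1 reached 0.366, so these correlations do not show the pairing there. The main fits held no term for the mouse. Genotypes share only numbers. Replicates of a group differed beyond sampling noise (chi-square per degree of freedom 7.07 or more).

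Named were the 10 members, listed pathway genes, chiefly those called, the 3 genes most like each of H2-Aa, Ciita, Cd80 and Cd86, and Pdap1. The members and the lists were chosen with earlier results of these data known.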

Additional observations from a re-analysis of the deposited data

How the results depend on the processing

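Over 750 refits of the log2 fold changes of members, 680 kept direction and side of the threshold, 34 lost and 12 gained a call, and 24 changed sign; the causes were not tested. Refits with a library left out hold fewer libraries. With 3 mice a group, only the spread between these mice is measured, and the smallest member count of 63 limits Cd80 most.

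The count of members called between genotypes in LPS-IL-4, 1 in edgeR, was 3 in DESeq2 and 2 with all 12 libraries in one fit, with no filter on low counts and with thinned counts, 0 with sex as a term (chosen after seeing the data, as were the fits without both libraries of mouse 2 or without the deep control library and mouse 2), and 0 to 2 with 1 library left out. In Pdap1-deficient cells the count between cultures, 6, was 2 to 6 with 1 library left out. The count in control cells was 4 to 7, and those in LPS-BAFF-TGFβ and for the genotype by stimulation term were 0 in every alternative run. Over all genes, the 741 calls between genotypes in LPS-IL-4 numbered 1217 in DESeq2, 1694 without a filter, 173 with sex as a term and 69 to 1759 with 1 library left out. In LPS-BAFF-TGFβ the 65 calls became 172 in DESeq2, 257 without a filter, 133 in one fit, 42 with sex as a term, 156 without the deep control library and mouse 2, and 19 to 116 with 1 library left out. Between cultures, calls numbered 1608 to 4858 in control (2874 with all libraries) and 908 to 2235 in Pdap1-deficient cells (1675 with all) with 1 library left out. For the genotype by stimulation term 6 genes were called in DESeq2, 1 without a filter and 9 without the deep control library and mouse 2.

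With the replicate block, which is the mouse in the comparisons of cultures, 4 members were called in control and 7 in Pdap1-deficient cells (1989 and 3854 of all genes). Between genotypes the numbers pair no animals, and the replicate block gave 1 and 0 members (641 and 48 of all genes), with Cd86 (edgeR adjusted p = 0.0161) called in place of H2-Ob (0.0684) in LPS-IL-4. It gave 0 members for the genotype by stimulation term and changed no other call of a member than those named.

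Sign changes were of values near 0 that no test called. Cd74 between genotypes in LPS-IL-4 was 0.02 with sex as a term and 0.00 thinned, and in LPS-BAFF-TGFβ -0.05 without a filter. For the genotype by stimulation term Cd74 was 0.01 at 10 or more counts in every library and 0.00 without a filter, H2-Eb1 0.00 without the deep control library, and H2-Aa 0.05 also without mouse 2. Cd86 between cultures in Pdap1-deficient cells was -0.12 without mouse 2. With 1 library or mouse left out, log2 ranges that crossed 0 were -0.08 to 0.03 (Cd74) and -0.03 to 0.16 (Ciita) between genotypes in LPS-IL-4, -0.17 to 0.00 (H2-DMa) and -0.03 to 0.07 (Cd74) in LPS-BAFF-TGFβ, -0.08 to 0.33 (H2-Ab1) and -0.45 to 0.01 (H2-Oa) between cultures in control cells, -0.15 to 0.32 (Cd86) in Pdap1-deficient cells, and -0.08 to 0.03 (H2-Aa), -0.02 to 0.22 (H2-Eb1) and -0.11 to 0.08 (Cd74) for the genotype by stimulation term.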

Other observations

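Genes of the MHC class I pathway, which presents peptides from proteins made in the cell to CD8+ T cells, were also compared between the cultures, with LPS-IL-4 set over LPS-BAFF-TGFβ. Of 10 genes tested, 4 were higher in control cells (Nlrc5, Tapbp, Tap1 and H2-K1) and 5 in Pdap1-deficient cells (Nlrc5, Tapbp, H2-K1, H2-D1 and B2m), and none was lower. Over all genes, 9.33% were higher in control and 5.89% in Pdap1-deficient cells. The median log2 fold change of the 10 was 0.56 and 0.62, beside -0.03 and 0.00 over all genes. Nlrc5, the class I coactivator related to Ciita, was at 267, 234 and 311 CPM with LPS-IL-4 and at 132, 113 and 129 CPM with LPS-BAFF-TGFβ in control cells (log2 1.10, SE 0.12, edgeR adjusted p = 0.000482), and its log2 fold change in Pdap1-deficient cells was 1.23 (SE 0.27, edgeR adjusted p = 0.0341). Ciita in the same control comparison had a log2 fold change of -0.07. Psmb8 stood at 221 CPM in the deep control library and between 64.2 and 125 CPM in the other control libraries. None of the 10 passed between genotypes in either culture in edgeR, where 1 had an unadjusted p under 0.05 in LPS-IL-4 and 0 in LPS-BAFF-TGFβ. Over all genes, 3582 of 15074 had one in LPS-IL-4 and 1486 of 14079 in LPS-BAFF-TGFβ.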
